A study of Mus musculus with 27 samples.

Results

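The genes described here are 10 genes of the intestinal crypt that are used as marks of stem cells or of Wnt signalling. They are the rows of the deposited table whose gene name is Olfm4, Ascl2, Lgr5, Axin2, Sox9, Slc12a2, Smoc2, Cd44, Ephb2 or Rnf43, which gives 10 of 55401 rows, 1 row for each name. All 10 passed the filter on low counts and were tested, although several were near the detection limit, as set out below.

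RNA of intestine was sequenced from wild-type male C57BL/6 mice aged 6 to 8 weeks, in 27 libraries that form 9 groups of 3. One group was untreated (control). Mice of 4 groups received radiation alone and were sampled at 6 h after 6 Gy, or at 6 h, 24 h or 3 d after 15 Gy. One group received CBLB502 alone, a flagellin-derived agonist of Toll-like receptor 5, given into the abdominal cavity at 0.2 mg/kg and sampled at 24 h. One group received CBLB502 and 15 Gy, and was sampled at 24 h. The last 2 groups were sampled at 24 h after 6 Gy, without or with CBLB502 at the same dose. Radiation was 60Co gamma rays at 72 R/min, and the series design gives CBLB502 as injected 0.5 h before 15 Gy. That design text lists 7 groups of 10 mice and a saline group as the control for CBLB502. The labels give 9 groups and an untreated control, and the groups at 24 h after 6 Gy are not in the design text. Whether 1 library stands for 1 mouse is stated in neither, so that p-values measure only how far these libraries spread, which may be technical. Which segment of intestine was taken is not given in the sources used here.

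Crypts of the small intestine hold dividing stem cells at their base, which are kept by Wnt ligands from Paneth cells and from the surrounding mesenchyme. A Wnt ligand binds a Frizzled receptor with Lrp5 or Lrp6 and keeps beta-catenin from being degraded. Beta-catenin then acts with Tcf factors on target genes, several of which are themselves receptors or brakes of the pathway. After radiation that kills stem cells, crypts regrow from surviving cells, and such target genes are used to follow this.

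Total counts were 57.4 to 87.1 M per library, and no 2 libraries of a group agreed within counting error (chi-square divided by its degrees of freedom, 97.5 to 871.6). Epithelial genes were high in every group, as with Epcam, a surface protein of epithelial cells, at 1351 ± 340 FPKM (SD, n = 3) in control. The libraries at 24 h after 6 Gy stood apart in the lists of other tissues. Summed over 17 genes of exocrine pancreas, control libraries held 19.4 to 21 CPM (counts scaled to a library of 1 M), those of 6 Gy alone 86.1 to 7038, and those of 6 Gy with CBLB502 234 to 2090. Of these pancreas genes, 9 were at 0 in every control library and none in those of 6 Gy alone. The sum over 14 fibroblast genes was 7.2 to 11.5 CPM in control, 59.2 to 74.3 after 6 Gy and 57 to 79.7 after 6 Gy with CBLB502. Both 6 Gy groups at 24 h differ from control in dose and time and may differ in dissection or processing, and these cannot be told apart. Every result on those groups is to be read with these values.

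All CPM values are scaled by edgeR's TMM method. A gene was called where edgeR's quasi-likelihood test over 19943 genes gave an adjusted p (Benjamini-Hochberg) under 0.05. Values of single libraries are given in the order of replicates 1, 2 and 3. The tissue is bulk, so fewer or more cells of a type and less or more RNA per cell cannot be told apart.

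**Figure D1:**
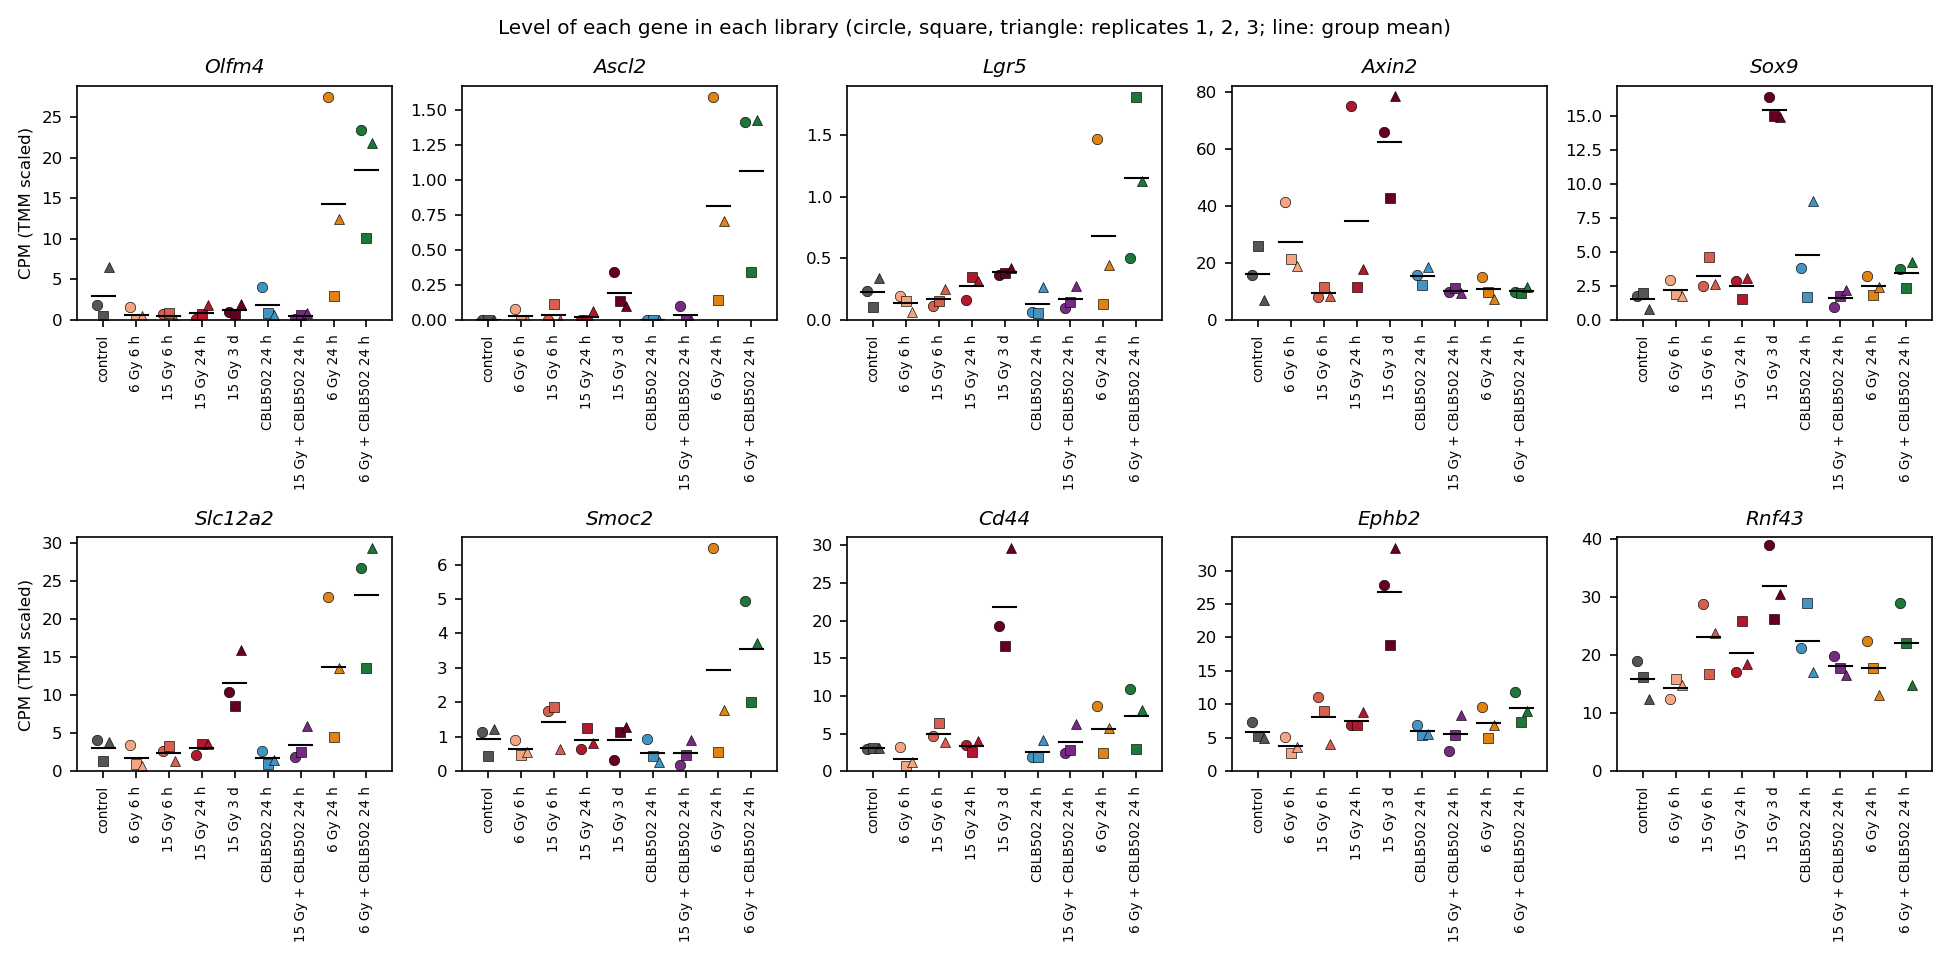
Level of the 10 genes in each of the 27 libraries, in TMM-scaled CPM on a linear axis from 0, with a line at each group mean. Sox9, Cd44 and Ephb2 are highest in all 3 libraries of 15 Gy at 3 d, while Olfm4, Ascl2, Slc12a2 and Smoc2 have their highest group means in the 2 groups at 24 h after 6 Gy.

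Compared per length, as fragments scaled by gene length and library size (FPKM), the 10 genes covered a wide range in untreated intestine. Axin2, a scaffold of the complex that degrades beta-catenin and itself induced by Wnt, was the highest in control with 2.33 ± 1.39 FPKM (SD, n = 3). Rnf43, a ubiquitin ligase that removes Frizzled receptors from the cell surface, followed with 1.92 ± 0.388 FPKM. Olfm4, a secreted glycoprotein abundant in crypt base stem cells, was at 0.791 ± 0.874 FPKM in control, with an SD above its mean. The receptor tyrosine kinase Ephb2, which positions cells along the crypt, was at 0.369 ± 0.0811 FPKM, and the hyaluronan receptor Cd44 at 0.359 ± 0.0109 FPKM. Next came the transcription factor Sox9 with 0.289 ± 0.117 FPKM and the sodium, potassium and chloride cotransporter Slc12a2 with 0.226 ± 0.109 FPKM. Smoc2, a secreted matrix protein, was at 0.107 ± 0.0494 FPKM in control.

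Lgr5 and Ascl2, the best known marks of the stem cell state, were at or near the limit of detection. Lgr5, the R-spondin receptor that marks cycling stem cells, was at 0.017 ± 0.0091 FPKM in control, and its highest value in any library was 0.205 FPKM, from 153 counts. No library reached 1 FPKM of Lgr5. Ascl2, a transcription factor of the crypt base, had 0 counts in 14 of 27 libraries, which included all 3 of control and all 3 of CBLB502 alone. A filter at 1 FPKM in at least 3 libraries would have kept 8 of the 10 genes and dropped Lgr5 and Smoc2. Olfm4 had 0 counts in 2 libraries, 1 at 6 h after 6 Gy and 1 at 6 h after 15 Gy.

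**Figure D2:**
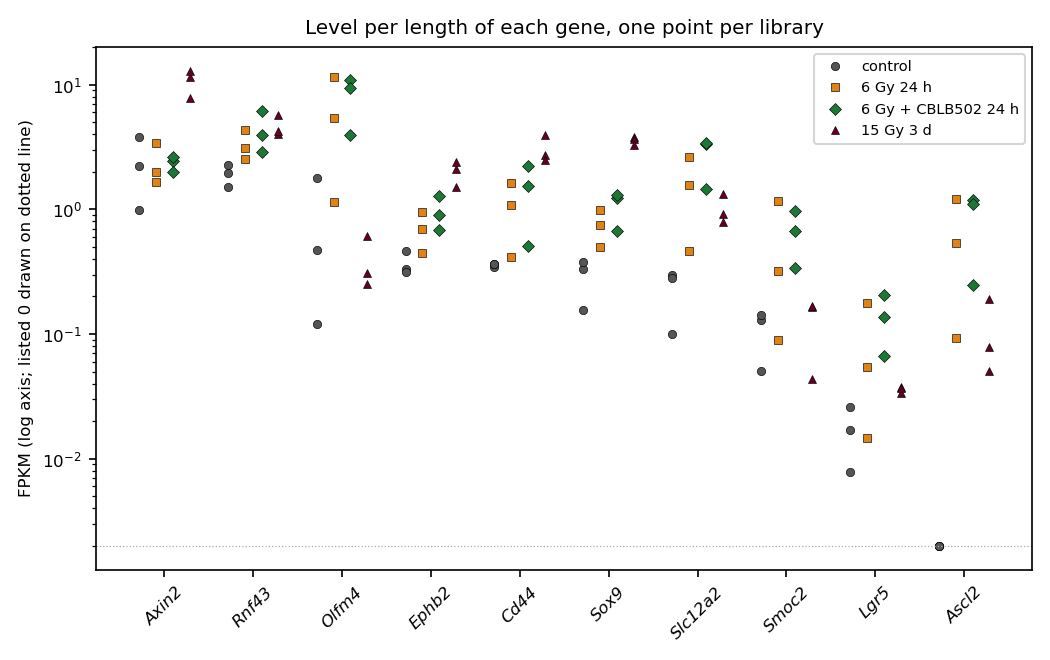
FPKM of the 10 genes on a log axis in control and the 3 groups in which at least 1 of them was called against control, with 1 point per library and genes ordered by their control mean. Axin2 leads in control and at 3 d after 15 Gy, whereas Olfm4 has the highest mean of the 10 genes in both groups at 24 h after 6 Gy.

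The order between genes differed between groups. At 3 d after 15 Gy it ran from Axin2 (10.7 ± 2.62 FPKM), Rnf43 (4.66 ± 0.907), Sox9 (3.58 ± 0.283) and Cd44 (3.06 ± 0.796) down to Lgr5 (0.0359 ± 0.00212). At 24 h after 6 Gy, Olfm4 came first with 6.05 ± 5.28 FPKM, ahead of Rnf43 with 3.31 ± 0.894 FPKM. In the group of 6 Gy with CBLB502, Olfm4 was at 8.06 ± 3.63 FPKM followed by Rnf43 with 4.3 ± 1.65 FPKM and Slc12a2 with 2.74 ± 1.11 FPKM. FPKM of all genes lay higher in these last 2 groups, by a median of 0.45 and 0.46 on the scale of log2(FPKM + 1) over 9227 genes, and are therefore compared here within a group.

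Positions in the table match GENCODE vM21 on the mouse build GRCm38 for all 10 genes. On chromosome 11 lie Axin2 (ENSMUSG00000000142, 108920349 to 108950783, plus strand), Sox9 (ENSMUSG00000000567, 112782224 to 112787760, plus strand) and Rnf43 (ENSMUSG00000034177, 87662722 to 87735539, plus strand). Olfm4 (ENSMUSG00000022026) lies on chromosome 14 from 79984081 to 80023139 on the plus strand, and Smoc2 (ENSMUSG00000023886) on chromosome 17 from 14279506 to 14404790 on the plus strand. Slc12a2 has the identifier ENSMUSG00000024597. On the minus strand are Ascl2 (ENSMUSG00000009248) at 142966829 to 142969264 of chromosome 7, Lgr5 (ENSMUSG00000020140) at 115450311 to 115587780 of chromosome 10, Cd44 (ENSMUSG00000005087) at 102811141 to 102901665 of chromosome 2, and Ephb2 (ENSMUSG00000028664) at 136647539 to 136835988 of chromosome 4. Whether counting used strand is not given in the sources used here. Annotated genes that overlap a member had at most 104 counts in any library, for 1110028F11Rik on the strand of Rnf43, and at most 13 for a gene opposite to any member, Gm11670 within Axin2.

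Axin2 had its highest group mean at 3 d after 15 Gy, and Olfm4 had its highest means at 24 h after 6 Gy, where it was not called against control. The promoter windows of these 2 genes, chosen from these values, are shown. Each is the 250 bases upstream of a RefSeq transcription start on GRCm38.p6, plus strand, with CG dinucleotides in capitals. The Axin2 window is chr11:108920099-108920348 and ends at the first base before the gene. The Olfm4 window is chr14:80000052-80000301 and lies inside the longer span that the table gives for that gene.
Axin2: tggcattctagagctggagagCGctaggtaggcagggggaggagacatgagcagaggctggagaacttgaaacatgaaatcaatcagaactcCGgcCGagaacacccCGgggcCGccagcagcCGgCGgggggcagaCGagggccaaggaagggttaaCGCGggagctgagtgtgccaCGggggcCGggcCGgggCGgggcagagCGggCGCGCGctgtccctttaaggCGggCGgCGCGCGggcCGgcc
Olfm4: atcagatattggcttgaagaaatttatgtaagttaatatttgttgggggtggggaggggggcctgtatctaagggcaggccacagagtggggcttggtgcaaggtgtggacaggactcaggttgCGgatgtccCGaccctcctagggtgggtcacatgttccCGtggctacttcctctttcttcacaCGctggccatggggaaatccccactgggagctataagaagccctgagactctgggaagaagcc

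The Axin2 window held 24 CG dinucleotides, more than 88.0% of the 32851 promoter windows in the RefSeq table, and the Olfm4 window held 4. The median over all windows was 6. Windows of 6 of the 10 genes are reported here, and any window of Slc12a2 was left out of the search. Ephb2 held 20 CG dinucleotides, Ascl2 19, Cd44 5 and the 2 starts of Rnf43 8 and 2. The Tcf motifs CTTTGAT and CTTTGAA, searched on both strands of the 300 bases from 250 before to 50 after each start, were in 0 of these 7 windows. Either motif was in 8.7% of all windows (CTTTGAT in 3.7%, CTTTGAA in 5.1%). The motif TATAAA was likewise in none of the 7 windows and in 13.6% of all.

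At 3 d after 15 Gy, 6 of the 10 genes were called higher than in control and none lower, which asks how the crypt genes stood when the high dose had acted for the longest time sampled. The genes called were Sox9, Cd44, Ephb2, Axin2, Slc12a2 and Rnf43, with fitted folds from 2.01 for Rnf43 to 10.2 for Sox9. Over all genes tested, 8.52% were called higher and 9.02% lower. The median log2 fold change was 1.92 over the 10 genes and 0.05 over all genes. In 8 of the 10 genes all 3 libraries at 3 d lay above all 3 of control, against 18.2% of all genes.

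Sox9, a transcription factor needed for Paneth cells and also present in stem cells, had 16.4, 15 and 14.9 CPM at 3 d and 1.76, 1.97 and 0.816 CPM in control. Its 3 d libraries agreed closely and stood above every library of the other 8 groups, of which the highest was 8.75 CPM with CBLB502 alone. The log2 fold change was 3.35 ± 0.50 (SE), with an edgeR adjusted p of 4.9e-05.

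Cd44, whose variant forms occur on crypt base cells, had 19.3, 16.6 and 29.6 CPM at 3 d and 2.99, 3.13 and 3.1 CPM in control. The 3 control libraries were almost equal, and every 3 d library was above every other library of the series. The log2 fold change was 2.83 ± 0.56 (edgeR adjusted p = 0.00096).

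Ephb2 had 27.9, 18.9 and 33.4 CPM at 3 d and 7.45, 5.27 and 4.97 CPM in control, a log2 fold change of 2.18 ± 0.37 (edgeR adjusted p = 0.00022). Its 3 d libraries too lay above all others, of which the highest was 11.9 CPM in the group of 6 Gy with CBLB502.

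Axin2 had 65.8, 42.7 and 78.5 CPM at 3 d and 15.7, 26 and 6.84 CPM in control. The groups did not overlap, but control ranged widely and its lowest library weighed on the call. The log2 fold change was 1.94 ± 0.52 (edgeR adjusted p = 0.0112), and the adjusted p rose to 0.0602 without control replicate 3.

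Rnf43 had 39, 26.3 and 30.6 CPM at 3 d and 19.1, 16.2 and 12.4 CPM in control, with a log2 fold change of 1.01 ± 0.26 (edgeR adjusted p = 0.00932). Its call ended without control replicate 3 and without 3 d replicate 1, where the adjusted p reached 0.0601. Rnf43 varied least of the genes across the series, with group means from 14.4 to 32 CPM.

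Slc12a2, which loads chloride into crypt cells for secretion, had 10.4, 8.54 and 15.9 CPM at 3 d and 4.12, 1.39 and 3.86 CPM in control. The log2 fold change was 1.90 ± 0.61 (edgeR adjusted p = 0.0346), although the call ended on leaving out any 1 of 5 of the 6 libraries, all but 3 d replicate 2.

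The other 4 genes were not called at 3 d. Olfm4 had 0.962, 0.74 and 2 CPM against 1.79, 0.458 and 6.59 in control, a log2 fold change of -1.25 ± 1.19 (edgeR adjusted p = 0.535). The groups overlapped, and the control library at 6.59 CPM was the widest apart. Smoc2 had 0.317, 1.13 and 1.3 CPM against 1.15, 0.445 and 1.23, which overlap fully. Lgr5 had 0.365, 0.381 and 0.425 CPM against 0.233, 0.108 and 0.341 CPM, from 30 to 34 counts and 8 to 23 counts. All 3 values were above those of control, but the log2 fold change of 0.78 ± 0.75 was no larger than its error allows (edgeR adjusted p = 0.545). Ascl2 had 28, 12 and 8 counts at 3 d and 0 in every control library. Taking 3 counts over the control group as the floor, this is at least 13.2-fold higher, with an edgeR adjusted p of 0.057 and a DESeq2 adjusted p of 0.0334.

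The 6 called genes thus did not include Olfm4, Lgr5 or Smoc2, and Ascl2 just missed the threshold. Paneth cell genes were higher in the same libraries. The sum over 12 Paneth genes was 128 to 187 CPM in control and 564 to 1241 CPM at 3 d, 6 of the 12 were called higher, and none of the 12 was at 0 in either group. The Paneth cell lysozyme Lyz1 was called higher with 239 ± 100 CPM against 33.3 ± 16.7 (log2 fold change 2.84 ± 0.80, edgeR adjusted p = 0.0165), and the defensin Defa24 with 173 ± 75.3 against 31.3 ± 8 CPM. The fibroblast sum was 11.3 to 29 CPM at 3 d and 7.2 to 11.5 CPM in control, with 1 of 13 tested genes called higher and 1 lower. The median log2 fold change of these genes was 2.05, against 0.05 over all genes. The most abundant of them, Vim, went the other way, at 2.84 ± 0.404 against 3.37 ± 0.456 CPM. The leukocyte sum was 183 to 239 CPM at 3 d and 296 to 619 CPM in control, with 5 of 18 genes called lower. The epithelial sum was 21759 to 30258 CPM at 3 d and 31726 to 42178 in control, with 4 of 14 genes called lower and 1 higher. The endothelial sum was 4.01 to 9.9 against 2.14 to 2.77 CPM, with 2 of 7 genes called higher. Mitochondrial genes took 9.09% to 10.5% of counts at 3 d and 11.8% to 17.8% in control. The part of these cell types and of the mitochondrial share in the levels of the 10 genes was not tested. Division genes gave no single direction. Their sum over 19 genes was 80.4 to 89 CPM at 3 d and 70.4 to 82.8 in control, 4 were called higher and 2 lower (the helicase subunit Mcm6 and the survivin gene Birc5), and Mki67, a mark of dividing cells, was at 5.94 ± 3.03 against 5.92 ± 2.97 CPM.

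**Figure D3:**
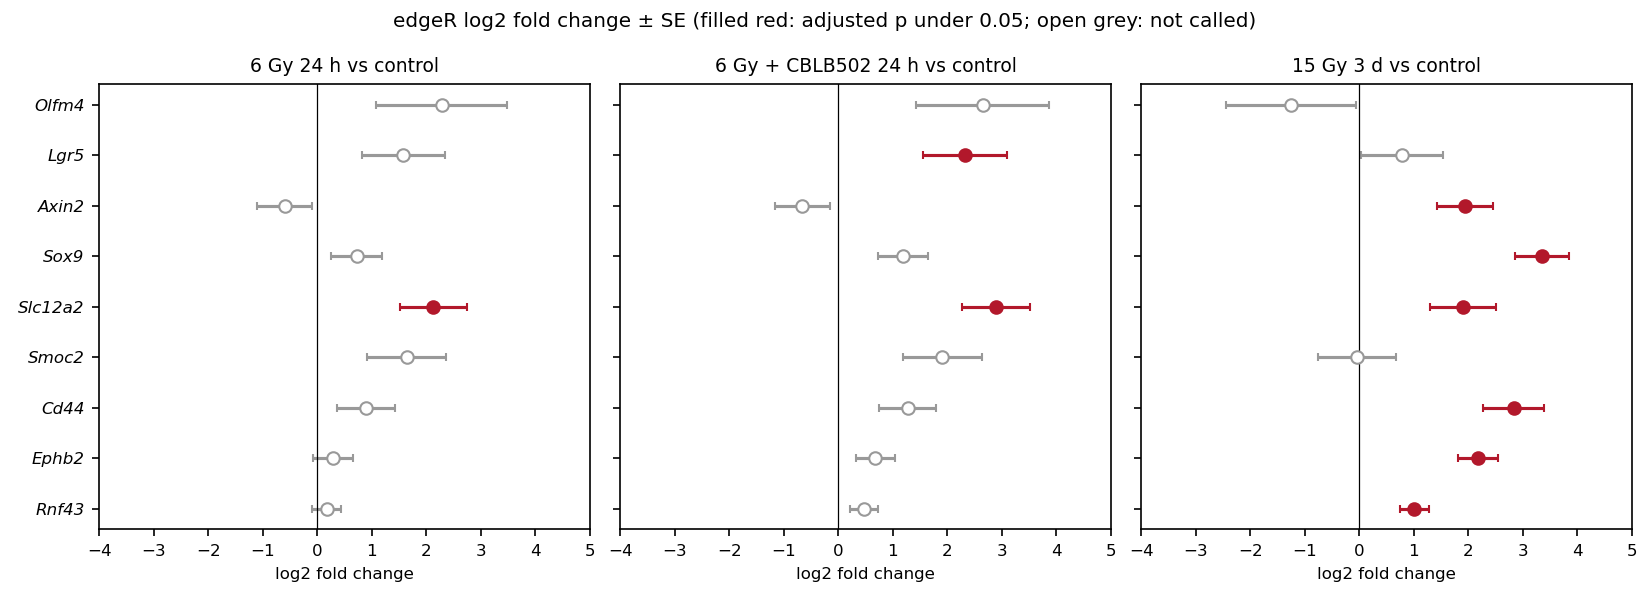
Fitted edgeR log2 fold change against control with its standard error for 9 of the 10 genes in 3 groups of 3 libraries, in filled red where the adjusted p was under 0.05. Ascl2 is left out because it had no count in control. Sox9, Cd44, Ephb2, Axin2 and Rnf43 were called at 3 d after 15 Gy and in neither group at 24 h after 6 Gy, while Slc12a2 was called in all 3.

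The neighbours of these genes in the pathway were examined with lists drawn up with earlier results of these data known. Of 17 other Wnt target genes, 6 were called higher at 3 d and 1 lower, with a median log2 fold change of 1.96. Myc, which drives growth, had 11.7 ± 2.14 CPM against 0.573 ± 0.191 in control (log2 fold change 4.35 ± 0.70, edgeR adjusted p = 0.00012). Ccnd2, a cyclin of early cell cycle, had 137 ± 35.4 against 31.6 ± 5.53 CPM (2.11 ± 0.36, edgeR adjusted p = 0.00022). Of 19 other genes used for stem or regenerating cells, 9 were called higher and none lower, with a median log2 fold change of 1.24. They were led by the cholesterol acyltransferase Soat1 (25 ± 1.13 against 5.95 ± 0.55 CPM) and the kinase Cdk6 (8.84 ± 0.849 against 1.13 ± 0.282 CPM).

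Genes upstream of the targets were mostly not called at 3 d, as were most of all genes tested, of which 17.5% were called in either direction. Of 15 Wnt ligands, R-spondins and genes for ligand export, 11 were tested, 1 was called higher and 1 lower. The ligand Wnt4 had 7.24 ± 1.49 CPM against 0.863 ± 0.645 in control (log2 fold change 3.07 ± 0.65, edgeR adjusted p = 0.00189). Wnt9b had 0 counts in all 3 libraries at 3 d and 0.205 ± 0.184 CPM in control. Among 12 tested receptors of 15, Fzd5 alone was called, at 35.6 ± 2.66 against 68.5 ± 15.2 CPM (-0.95 ± 0.18, edgeR adjusted p = 0.00062). Among 12 tested antagonists of 16, Ctnnbip1, which blocks the binding of Tcf to beta-catenin, alone was called, at 9.99 ± 0.503 against 20.3 ± 1.19 CPM (-1.02 ± 0.13, edgeR adjusted p = 6.8e-06). Of 19 tested genes of the beta-catenin machinery, 2 were called higher and 1 lower, with Tcf7 at 3.9-fold and Dvl1 at 0.668-fold of control. The list medians were 0.27 for ligands, 0.56 for receptors, 0.81 for antagonists and -0.04 for the machinery. Of 12 tested Notch genes, 3 were called higher, with the ligand Jag1 at 4.8 ± 1.36 against 1.87 ± 0.444 CPM and the receptor Notch2 at 7.31 ± 1.72 against 3.63 ± 0.479 CPM. The lists share members: Tcf7, Lef1, Notum, Nkd1 and Znrf3 are among the Wnt targets and in 1 other Wnt list, Mmp7 is in the Wnt target and the Paneth list, and Cdx1 and Krt19 are also in the epithelial list.

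Against 24 h after the same dose, 4 of the 10 genes were called higher at 3 d, and none lower, where 6.36% and 8.28% of all genes were. Sox9 differed by 2.63 ± 0.48 on the log2 scale (edgeR adjusted p = 0.00053), Cd44 by 2.70 ± 0.55 (0.00158), Ephb2 by 1.82 ± 0.37 (0.00132) and Slc12a2 by 1.89 ± 0.61 (0.0399). In 7 of the 10 genes, Ascl2, Lgr5, Sox9, Slc12a2, Cd44, Ephb2 and Rnf43, every 3 d library lay above every library at 24 h, against 15.9% of all genes. Both comparisons at 3 d use the same 3 d libraries, so the second is not a separate observation of that group. Axin2 was not called (0.84 ± 0.50, edgeR adjusted p = 0.298). Its libraries at 24 h are given next.

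At 24 h after 15 Gy none of the 10 genes was called against control, with 1 at an unadjusted p under 0.05 and also 0 called in DESeq2, where edgeR called 1.92% of all genes. The gene under 0.05 was Axin2, with 75.1, 11.5 and 17.8 CPM against 15.7, 26 and 6.84 CPM. One library, replicate 1, was far above the others, and its level reached those of 3 d. Axin2 was called higher at 24 h than at 6 h after 15 Gy (log2 fold change 1.89 ± 0.52, edgeR adjusted p = 0.0112), the 1 of 10 genes so called, and none was lower, where 12.3% of all genes were higher and 7.95% lower. The 6 h libraries had 8, 11.7 and 8.48 CPM, so the groups overlapped in the second library at 24 h. Without replicate 1 at 24 h the log2 fold change was 0.64 ± 0.41 (edgeR adjusted p = 0.316). Against 3 d the change without that library was 2.09 ± 0.45 (edgeR adjusted p = 0.00278), which is a call where the full set gave none.

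The same library stood apart in the clock genes. A clock score was formed from 2 sets of genes that peak at different hours of the day. It is the mean log2 CPM of 3 genes (Nfil3, Npas2, Arntl) less the mean of 6 (Tef, Cry2, Dbp and the Period genes Per1 to Per3), centred over all libraries. It was 4.14 in replicate 1 at 24 h after 15 Gy and -0.28 in both other libraries of that group. The score was -2.58 ± 0.35 (SD, n = 3) in control, 2.19 ± 0.76 at 3 d after 15 Gy and 2.51 ± 0.61 at 6 h after 6 Gy. Axin2 had its 3 highest group means, 62.3 CPM at 3 d and 34.8 CPM at 24 h after 15 Gy and 27.2 CPM at 6 h after 6 Gy, in 3 of the 4 groups with a mean score above 0. In the fourth, 15 Gy with CBLB502 at 24 h, the score was 2.35 ± 1.38 and Axin2 was at 10.1 ± 0.862 CPM. The difference in score between control and 3 d lies under every gene compared between them, Sox9, Cd44 and Ephb2 included. The hour of sampling is not given in the sources used here. Its part in the levels of Axin2 and of the other genes was not tested.

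**Figure D4:**
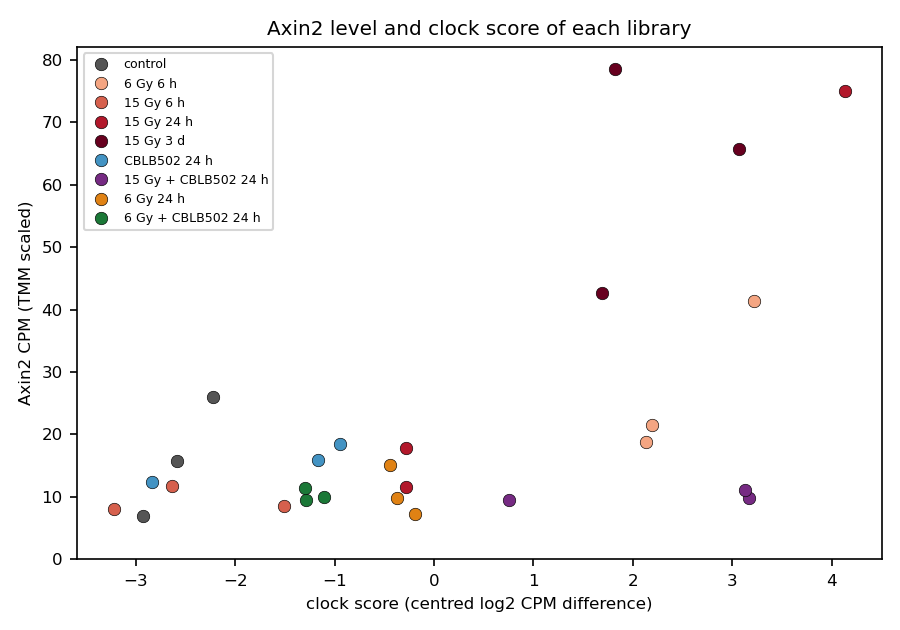
Axin2 in TMM-scaled CPM on a linear axis against the clock score of each of the 27 libraries, coloured by group. The 5 libraries above 40 CPM all have a score above 1, while the 3 libraries of 15 Gy with CBLB502 have scores from 0.76 to 3.17 and Axin2 between 9.42 and 11.1 CPM.

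At 6 h after 6 Gy none of the 10 genes was called against control, where 15.9% of all genes were, and none of the 10 had an unadjusted p under 0.05 or was called by DESeq2. None was called at 15 Gy either, where 18.3% of all genes were, with Sox9 and Rnf43 under 0.05 before adjustment and 0 called by DESeq2. Olfm4 had 1.54, 0 and 0.442 CPM at 6 Gy and 0.761, 0.816 and 0 CPM at 15 Gy, overlapping the control values of 0.458 to 6.59 CPM. Its log2 fold change at 15 Gy was -2.48 ± 1.26 (edgeR adjusted p = 0.179). The 3 control libraries of Olfm4 held 34 to 444 counts. Sox9 at 6 h after 15 Gy had 2.47, 4.59 and 2.66 CPM, each above every control library, with a log2 fold change of 1.10 ± 0.46 (edgeR adjusted p = 0.106). Cd44 too lay wholly above control there, with 4.65, 6.48 and 3.89 CPM (0.70 ± 0.53, edgeR adjusted p = 0.384). These were 2 of the 10 genes, against 14.5% of all genes.

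Between the doses at 6 h, 2 genes were called higher at 15 Gy than at 6 Gy and 1 lower, against 12.9% and 15.7% of all genes. Axin2 was lower at 15 Gy, with 8, 11.7 and 8.48 CPM against 41.4, 21.5 and 18.8 CPM at 6 Gy (log2 fold change -1.54 ± 0.51, edgeR adjusted p = 0.0274). The groups did not overlap, as in 21.5% of all genes in this direction, and the mean clock scores were -2.45 ± 0.87 and 2.51 ± 0.61. Cd44 was higher at 15 Gy, with 4.65, 6.48 and 3.89 CPM against 3.22, 0.666 and 1.22 CPM (1.56 ± 0.54, edgeR adjusted p = 0.033), again without overlap, as in 17.4% of all genes in that direction. Ephb2 was called higher (1.07 ± 0.36, edgeR adjusted p = 0.0291) with overlap, at 11.1, 9.06 and 4.03 CPM against 5.15, 2.75 and 3.64 CPM. Rnf43 lay wholly above, with 28.8, 16.8 and 23.9 CPM against 12.4, 15.9 and 14.9 CPM, and just missed the threshold (0.69 ± 0.26, edgeR adjusted p = 0.0526, DESeq2 adjusted p = 0.0304). The calls of Axin2 and Cd44 each ended on leaving out any 1 of 3 libraries, and that of Ephb2 any 1 of 4. The epithelial sum was 30378 to 40479 CPM at 15 Gy and 20484 to 23855 CPM at 6 Gy. Of 14 epithelial genes, 6 were called higher at 15 Gy and 0 lower. Mitochondrial genes took 6.82% ± 2.22% of counts (SD) at 15 Gy and 19.7% ± 7.94% at 6 Gy. The part of the epithelial and mitochondrial shares in the levels of Axin2, Cd44, Ephb2 and Rnf43 was not tested.

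At 24 h after 6 Gy, 2 of the 10 genes were called higher than in control and none lower, where 9.16% and 9.77% of all genes were. They were Ascl2 and Slc12a2, and the median log2 fold change of the 10 was 1.23 against 0.16 over all genes. Ascl2 had 125, 12 and 57 counts (1.59, 0.145 and 0.709 CPM) where control had none. That is at least 56-fold higher by the floor of 3 counts over the control group (edgeR adjusted p = 0.0157). Slc12a2 had 22.9, 4.5 and 13.6 CPM against 4.12, 1.39 and 3.86 CPM, a log2 fold change of 2.13 ± 0.62 (edgeR adjusted p = 0.0189). Its lowest 6 Gy library lay only just above the highest control library. These were the 2 of the 10 genes with every 6 Gy library above control, against 21.5% of all genes.

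Olfm4 had its highest single library here, with 27.5, 3.01 and 12.5 CPM against 1.79, 0.458 and 6.59 CPM in control. The ranges overlapped, and the log2 fold change of 2.28 ± 1.20 did not pass (edgeR adjusted p = 0.192), although limma on log2(FPKM + 1) gave an adjusted p of 0.00402. Smoc2 had 6.47, 0.555 and 1.77 CPM (1.64 ± 0.73, edgeR adjusted p = 0.119), and Lgr5 had 1.47, 0.133 and 0.448 CPM from 115, 11 and 36 counts (1.58 ± 0.76, edgeR adjusted p = 0.151). For both, the second library lay among the control values. Axin2 was not higher, with 15.1, 9.76 and 7.25 CPM (-0.60 ± 0.50, edgeR adjusted p = 0.444). Cd44, Ephb2, Rnf43 and Sox9 had log2 fold changes from 0.17 to 0.89, none of them called.

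The 3 libraries of this group kept 1 order in most of the genes. All 10 were highest in replicate 1, and 8 ran from replicate 1 over 3 to 2. The share of all genes in that order is not given here. The Paneth sum of these libraries ran the same way, from 1000 over 467 to 212 CPM, and so did the division genes, from 156 over 134 to 91.1 CPM. The smooth muscle sum did too, from 277 over 196 to 190 CPM, and the fibroblast sum was also highest in replicate 1, with 74.3 CPM against 59.7 and 59.2. The epithelial sum was lowest there, with 17997 CPM against 20266 and 21134. The pancreas sum ran otherwise, with 7038 CPM in replicate 2 and 86.1 and 118 CPM in the others. Without replicate 1, none of the 10 genes was called in this group, and without replicate 2, 3 were called. The count also fell to 0 without control replicate 2 and to 1 without control replicate 1.

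In the group of 6 Gy with CBLB502 at 24 h, 3 of the 10 genes were called higher than in control and none lower, where 11.4% and 11.2% of all genes were, and the median log2 fold change was 1.59 against 0.17. Ascl2 had 145, 29 and 122 counts, at least 72.9-fold higher (edgeR adjusted p = 0.0107). Slc12a2 had 26.7, 13.6 and 29.3 CPM, a log2 fold change of 2.89 ± 0.63 (edgeR adjusted p = 0.00237). Lgr5 had 0.506, 1.81 and 1.13 CPM against 0.233, 0.108 and 0.341 CPM, from 52, 153 and 96 counts (2.33 ± 0.77, edgeR adjusted p = 0.0334). The calls of Ascl2 and Slc12a2 held on leaving out any 1 library, and that of Lgr5 ended without any 1 of 4.

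In 6 of the 10 genes the 3 libraries all lay above control, against 25.6% of all genes. Besides the 3 called genes these were Olfm4, Sox9 and Smoc2. Olfm4 had 23.5, 10.1 and 21.8 CPM (2.65 ± 1.22, edgeR adjusted p = 0.122), Smoc2 4.93, 2.02 and 3.71 CPM (1.91 ± 0.73, edgeR adjusted p = 0.0627, DESeq2 adjusted p = 0.0355) and Sox9 3.75, 2.38 and 4.24 CPM (1.19 ± 0.46, edgeR adjusted p = 0.0679). Axin2 was at 9.89, 9.47 and 11.4 CPM, within the range of control. The lowest library was replicate 2 in 8 of the 10 genes, Lgr5 being highest there, and the share of all genes is not given here.

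Other lists moved in the same 2 groups. The Paneth sum was 388 to 1149 CPM with CBLB502, and 5 of 12 Paneth genes were called higher there and 4 after 6 Gy alone. Lyz1 was called in both, with 170 ± 125 CPM after 6 Gy and 236 ± 117 with CBLB502 against 33.3 ± 16.7 in control. Defa24 was too, but the defensin genes are near-identical copies and their single values are uncertain. Of 13 tested fibroblast genes, 7 were called higher after 6 Gy and 9 after 6 Gy with CBLB502, with the collagen Col1a1 at 21.3 ± 5.46 and 15.8 ± 6.5 CPM against 0.278 ± 0.205 in control. Of 16 tested pancreas genes, 16 and 15 were called higher. Of 9 smooth muscle genes, 5 and 2 were called higher, with median log2 fold changes of 5.07 and 3.70. Their sum was 190 to 277 and 147 to 203 CPM against 112 to 153 in control. Most of the control sum was 1 gene, Mylk, at 128 ± 19 CPM, so the sum says little about the others. Of 18 leukocyte genes, 1 was called higher after 6 Gy, and 5 higher and 1 lower with CBLB502. Of 7 endothelial genes, 1 and 2 were called higher. Of 14 epithelial genes, 9 and 8 were called lower and 1 higher in each, as Krt20 of differentiated cells at 2445 ± 226 and 2032 ± 433 against 6433 ± 941 CPM. The summed epithelial level was 17997 to 21134 and 16737 to 20812 CPM, against 31726 to 42178 in control. The part of these other cells and of the epithelial share in the levels of the 10 genes was not tested.

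**Figure D5:**
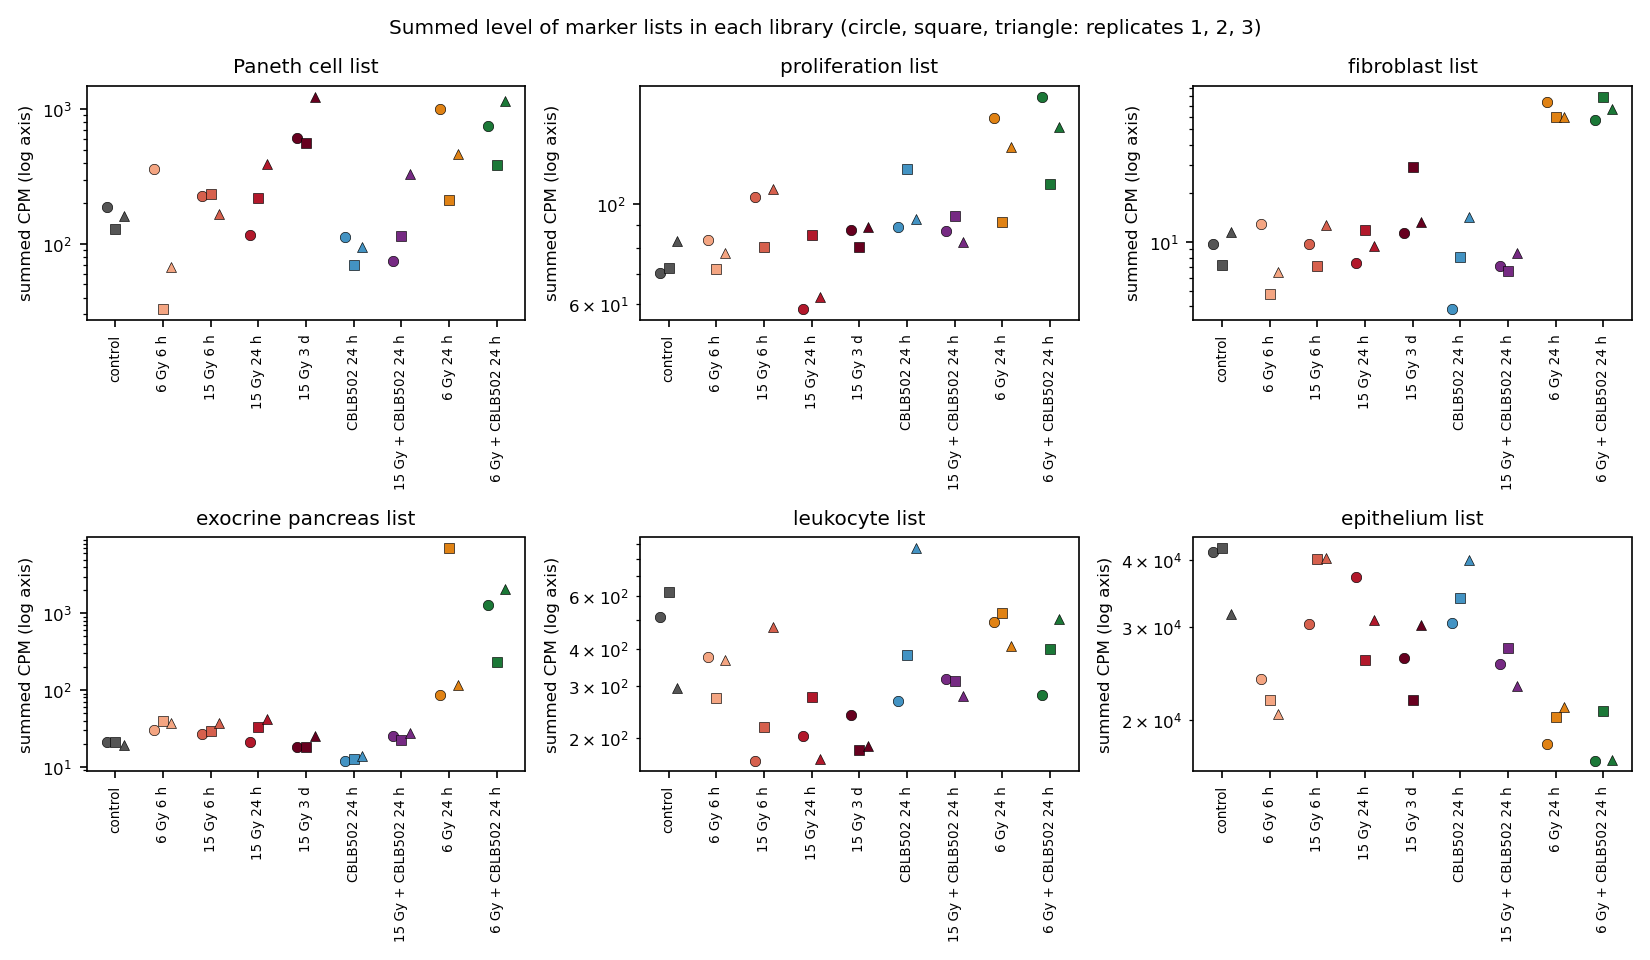
Summed TMM-scaled CPM of 6 gene lists in each of the 27 libraries on log axes, with symbols for replicates 1, 2 and 3. The Paneth sum is above every control library in all libraries at 3 d after 15 Gy and at 24 h after 6 Gy, and the fibroblast and pancreas sums are highest in the 2 groups at 24 h after 6 Gy.

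Division genes were called more widely in these groups than at 3 d after 15 Gy, although the difference between the groups was not tested. Of 19 genes, 7 were called higher after 6 Gy and 10 after 6 Gy with CBLB502, none lower. The replication helicase subunit Mcm5 had 3.88 ± 2.42 and 3.88 ± 1.49 CPM against 0.583 ± 0.128 in control. Of the 17 other Wnt targets, 5 and 9 were called higher and 1 lower in each group. Myc was called higher with 3.78 ± 2.95 and 4.21 ± 0.98 against 0.573 ± 0.191 CPM, and Jun lower with 113 ± 10.5 and 92 ± 24.3 against 257 ± 32.9 CPM. Of 19 other stem cell genes, 4 and 6 were called higher and none lower, Soat1 in both.

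Over all genes tested, 18.9% were called in either direction after 6 Gy and 22.5% after 6 Gy with CBLB502. Among the upstream genes, Wnt4 was the 1 called ligand of 11 tested in either group, with 4.98 ± 0.896 and 4.46 ± 0.843 CPM. Of 12 receptors, 3 and 5 were called higher and 2 lower in each, with the Wnt receptor Ryk at 23.8 ± 0.19 and 23.4 ± 2.14 against 39.8 ± 7.11 CPM. Of 12 antagonists, 1 and 2 were called higher and 2 lower in each. Notum, an enzyme that inactivates Wnt ligands, had 0.838 ± 0.252 and 0.847 ± 0.481 CPM against 0.0198 ± 0.0343 in control. Of 19 genes of the machinery, 2 were called higher in each and 2 and 3 lower. Ctnnb1, which encodes beta-catenin, was lower with 339 ± 47.7 and 366 ± 55.1 against 616 ± 142 CPM. Of 12 Notch genes, 2 and 3 were called higher and 1 lower, Jag1 being higher in both and Dll4 lower in both.

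Between the doses at 24 h, Slc12a2 was called lower at 15 Gy than at 6 Gy (log2 fold change -2.13 ± 0.62, edgeR adjusted p = 0.0364) and Axin2 higher (1.70 ± 0.52, edgeR adjusted p = 0.0438), where 3.57% and 4.63% of all genes were called lower and higher. The Slc12a2 call ended without any 1 of 5 libraries. The Axin2 call ended on leaving out any 1 of 4, and without replicate 1 at 15 Gy the log2 fold change was 0.45 ± 0.41. Olfm4, Ascl2 and Slc12a2 lay lower in every library at 15 Gy, as did 16% of all genes, the first 2 without a call. Olfm4 had 0.0936, 0.72 and 1.9 CPM at 15 Gy against 27.5, 3.01 and 12.5 CPM at 6 Gy (-3.99 ± 1.31, edgeR adjusted p = 0.0605, DESeq2 adjusted p = 0.0266). Ascl2 had 0, 0 and 4 counts against 125, 12 and 57 (edgeR adjusted p = 0.0868). This contrast includes the libraries with pancreas and fibroblast genes, and dose and those differences cannot be told apart.

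CBLB502 alone, which asks what the agonist does to these genes without radiation, gave no call among the 10, where edgeR called 2.41% of all genes. One gene had an unadjusted p under 0.05, and DESeq2 called 1. That gene was Sox9, with 3.83, 1.67 and 8.75 CPM against 1.76, 1.97 and 0.816 CPM in control (log2 fold change 1.65 ± 0.47, edgeR adjusted p = 0.064, DESeq2 adjusted p = 0.0135). The second treated library lay within control, and the 3 treated libraries spread more than those of control. For the other genes the estimates lay between -0.85 for Slc12a2 and 0.50 for Rnf43. Ascl2 had no count in either group.

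Within 15 Gy at 24 h, CBLB502 gave no call among the 10 genes, where 0.00501% of all genes were called, 1 gene in all. One of the 10 had an unadjusted p under 0.05 and DESeq2 called 0. Axin2 had 9.86, 11.1 and 9.42 CPM with CBLB502 against 75.1, 11.5 and 17.8 CPM without, all below, as in 5.15% of all genes, with a log2 difference of -1.78 (95% interval -2.85 to -0.71, unadjusted p = 0.0023, edgeR adjusted p = 0.499). Without replicate 1 of 15 Gy the difference was -0.53 ± 0.41. The interval of the difference stayed within 2-fold for Rnf43 alone, from -0.72 to 0.36, and passed 2-fold on at least 1 side in the other 9 genes. It ran from -1.17 to 0.31 for Ephb2, -2.23 to 0.91 for Lgr5 and -3.32 to 1.78 for Olfm4. Against control, the group of 15 Gy with CBLB502 had none of the 10 genes called or under an unadjusted p of 0.05, and 0 called by DESeq2, where edgeR called 8.51% of all genes.

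Within 6 Gy at 24 h, CBLB502 gave none either, where 0% of all genes were called, with no unadjusted p under 0.05 among the 10 and 0 called by DESeq2. The estimates were positive for 9 of the 10 genes, all but Axin2, with a median of 0.38 against 0.01 over all genes. Slc12a2 differed by 0.76 (95% interval -0.46 to 1.99), Lgr5 by 0.75 (-0.76 to 2.27) and Olfm4 by 0.36 (-2.00 to 2.73). The libraries overlapped in all 10 genes, while 5.31% of all genes lay wholly above and 4.61% wholly below.

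Whether CBLB502 acted differently with than without radiation was tested as an interaction, and none of the 10 genes was called for either dose, where 0.12% of all genes were called for 15 Gy and 0.0953% for 6 Gy. Ascl2 had no count in control or with CBLB502 alone, so its interaction had no usable error and could not be called at either dose. For 15 Gy, 2 genes had an unadjusted p under 0.05. Sox9 had an interaction of -2.26 ± 0.66 on the log2 scale (unadjusted p = 0.0023, edgeR adjusted p = 0.273), from a difference of -0.61 ± 0.46 with 15 Gy and 1.65 ± 0.47 without. Axin2 had -1.72 ± 0.71 (edgeR adjusted p = 0.529). For 6 Gy no gene was under 0.05, and DESeq2 called 0 for both doses.

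Across the 9 groups, the 10 genes had their highest mean in 1 of 2 settings. Sox9, Cd44, Ephb2, Axin2 and Rnf43 were highest at 3 d after 15 Gy, and Olfm4, Ascl2, Lgr5, Slc12a2 and Smoc2 in the group of 6 Gy with CBLB502, followed in each by 6 Gy alone. For Sox9, Cd44 and Ephb2 the group at 3 d did not overlap the next lower group. For Axin2 and Rnf43 it did, with 15 Gy at 24 h and 15 Gy at 6 h. In the second set the group with CBLB502 overlapped 6 Gy alone in all 5 genes. Slc12a2 belonged to both settings, with 23.2 ± 8.37, 13.7 ± 9.2 and 11.6 ± 3.85 CPM in the 3 highest groups and 3.48 ± 2.16 CPM in the fourth, which did not overlap the third.

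The genes most like each of the 10 were taken as the 3 with the smallest root mean square difference in log2 CPM, centred over the libraries, among 9227 genes of at least 1 FPKM on average. This is a description over 27 libraries that share depth and the differences between groups. Slc12a2 was nearest to the Paneth genes Lyz1 (difference 0.52), Defa24 (0.58) and Defa17 (0.61), where Slc12a2 itself had an SD of 1.5 over the libraries. Cd44 was nearest to Itln1 (0.61), Ccnd2 (0.62) and Ccnd1 (0.68), with an SD of 1.20. Ephb2 was nearest to Mpzl2 (0.51), and Sox9 to Lpcat4 (0.67), Actn1 (0.70) and Hs3st1 (0.72). Axin2 was nearest to Sowahc (0.58), Hs3st1 (0.60) and Frk (0.64), and Rnf43 to Sipa1l1 (0.26), Gaa (0.30) and M6pr (0.31).

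For the other 4 genes, Olfm4 was nearest to Mptx2 (1.28), Gm45912 (1.44) and Jchain (1.48) with an SD of 2.61, Ascl2 to Defa-ps7 (1.10), Fbl (1.22) and Ighv3-1 (1.22), Lgr5 to Rps27a (0.63), Csrp1 (0.66) and Dtymk (0.71), and Smoc2 to Ifitm2 (0.59), Rplp2 (0.69) and Rplp1 (0.70). Over the 21 libraries without the groups at 24 h after 6 Gy, among 8750 genes, Slc12a2 was nearest to Sh2d4a (0.50), Lyz1 (0.53) and Ccnd1 (0.58). Cd44 was then nearest to Ccnd2 (0.60), Defa24 (0.61) and Itln1 (0.65), Ephb2 to Nhp2 (0.44), C1qbp (0.49) and Ccnd1 (0.56), and Olfm4 to Mptx2 (1.20), Tfrc (1.37) and Gm45912 (1.40). For Axin2 the 3 nearest became Marcks (0.56), Arrdc4 (0.60) and Lhfpl2 (0.63), none of them among the first 3 over 27 libraries. All 3 changed for Ascl2 too, to Rpl17-ps9 (0.76), Ccnd1 (0.84) and Nhp2 (0.87), while Lgr5 kept Rps27a (0.52). Ascl2 had 0 counts in 14 of 27 libraries and Lgr5 a median of 16 counts, so their nearest genes rest on low counts.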

How the data were processed

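One deposited table held counts and FPKM of every gene in 27 intestine libraries. Per the file headers, the authors deposited whole-number counts per gene and, beside them, FPKM (fragments scaled by gene length and library size), with 0.0001 in place of 0. The submitters' processing notes name Bowtie 0.12.2, HISAT2 2.0, StringTie 1.3.0 and the build mm8 without roles. How counts were assigned to genes is not given in the sources used here. Gene positions equal those of GENCODE vM21 (GRCm38) for 51957 of 55141 shared identifiers (94.2%).

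From the counts, the 19943 genes that reached 10 in 3 or more libraries were tested with edgeR 4.0.16 in R 4.3.3: TMM scaling, all 27 libraries in 1 fit, quasi-likelihood F test, Benjamini-Hochberg adjustment within each of 14 comparisons and 2 interactions. SE is the log2 fold change divided by the square root of F. Adjusted p-values are from edgeR unless DESeq2 1.42.0 or limma 3.58.1 is named. FPKM served only to compare genes and for limma. Depth was 57.4 to 87.1 M counts. Simulated data for 15 Gy at 3 d against control held 19943 genes, 200 of them changed. Of these, 39% of 2-fold and 75% of 4-fold changes were recovered, and 3 of 117 calls were of unchanged genes. In the data 8.52% of genes were called higher and 9.02% lower, so these rates need not carry over. Groups came from the sample labels. The members and lists were chosen with earlier results of these data known. Named beside the members are at most 2 called genes per pathway list and comparison (smallest adjusted p), the 2 of a cell type list with the highest FPKM, and Epcam and Mki67 as references. Alternatives were other filters, scalings, tools, pseudocounts, a replicate block and leaving out each library. One gene among those most like a member is not reported here.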

Additional observations from a re-analysis of the deposited data

How the results depend on the processing

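Of 21 calls among 160 results of the 10 genes, none turned sign, 13 were called in every alternative that left out no library, and 8 also without any 1 library. Those 8 were Sox9, Cd44 and Ephb2 at 3 d after 15 Gy against control and against 24 h, and Ascl2 and Slc12a2 in the group of 6 Gy with CBLB502 against control. DESeq2 called all 21, and 15 were called with only the compared groups in the fit. For 6 Gy at 24 h against control, limma called 6 genes on log2(FPKM + 1) and 8 on log2(FPKM + 0.1), and the groups fitted alone gave 1. For 6 Gy with CBLB502 against control, limma gave 9 with either pseudocount. FPKM of all genes were shifted upwards in these groups, as given above. For CBLB502 alone, a filter at 1 FPKM and DESeq2 each gave 1. Between doses at 6 h, limma on log2(FPKM + 1) and the groups fitted alone each gave 1, while Rnf43 was called besides under median-ratio scaling (adjusted p = 0.0457), the replicate block (0.0371), DESeq2 (0.0304) and without the groups of 6 Gy at 24 h (0.0382). Between doses at 24 h, the filter at 1 FPKM gave 4, the replicate block 1 and the groups fitted alone 0. From 6 h to 24 h after 15 Gy, limma on log2(FPKM + 1) and the groups fitted alone gave 0. The cause was not tested. Leaving out 1 library at a time, the count of genes called ran from 0 to 1 for 6 Gy at 6 h, 0 to 3 for 6 Gy at 24 h, 3 to 6 for 15 Gy at 3 d (3 without control replicate 3), 0 to 1 for CBLB502 alone and 2 to 3 for 6 Gy with CBLB502, each against control. It ran from 1 to 2 between doses at 6 h, 0 to 2 between doses at 24 h, 0 to 1 from 6 h to 24 h and 3 to 4 from 24 h to 3 d after 15 Gy. Same-numbered libraries did not deviate together: correlations were -0.12 to 0.13, and in 0 of 14 comparisons were all over 0.1, so the numbers do not pair libraries. With the replicate block 20 of the 21 calls held, Axin2 between doses at 24 h being the exception. Depth limits Lgr5, Ascl2 and Smoc2 most, with medians of 16, 0 and 56 counts per library.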
